A study of Sus scrofa with 8 samples.

Results

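The matrix metalloproteinases MMP1, MMP2, MMP3, MMP7, MMP9 and MMP14 and their tissue inhibitors TIMP1, TIMP2 and TIMP3 were described in pig lung. Their probes were chosen by gene name and selected on signal, in that the measured signal had to be well above background on at least 1 array. All 9 genes had such a probe, of 3828 genes named here with one, and all 10 probes that carried 1 of these names were kept. They stood among 34406 probes that passed the same criterion and 43603 on the array. The genes had been proposed with results of these arrays in view. MMP3 lay just inside the criterion, with 2 of 8 arrays well above background, MMP1 followed with 6 arrays, and the other 8 probes were well above background on all 8 arrays. No probe lay outside it. A RefSeq accession of the array design named 7 of the probes (MMP1, MMP2, MMP3, MMP9, MMP14, TIMP1 and TIMP2), and these were tested. The MMP7 probe also targets a RefSeq accession, but it matched no symbol in the annotation used, and both TIMP3 probes have another kind of target. These 3 probes took their names from the authors' lists of transcripts, which had been ordered by p-values of the same arrays. Their values are therefore given as a description with no test.

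Lung RNA came from 4 groups of female pigs killed at 6 months of age. TH were Tibetan pigs raised at 3500 m, and DL were Duroc pigs raised at 40 m. TL were Tibetan pigs moved from the highland to 40 m at 1 month of age, and DH were Duroc pigs moved from the lowland to 3500 m at the same age. Each group had 2 arrays, each of a different pig. With 4 pigs of each breed, breed cannot be told apart from what else differed between the source herds, and a moved group differs from a resident group of its breed in the move as well as in altitude.

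Metalloproteinases are zinc-dependent enzymes that are made as inactive precursors and, once activated, cut collagens, elastin, basement membrane proteins and surface proteins. The TIMPs are small proteins that bind the active site of these enzymes, and the balance between enzyme and inhibitor is known to govern matrix turnover in alveoli, airways and vessel walls of the lung. Regulation also takes place by secretion, activation and inhibition of the proteins, none of which an RNA array measures.

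The resident groups TH and DL were hybridized on slide 1, and the moved groups TL and DH on slide 2. The breed by altitude interaction, the move and the slide are therefore the same contrast and cannot be told apart. Differences between altitudes within a breed, and between breeds at an altitude, each cross the slides. TH less DL and TL less DH lie within a slide, but there breed and altitude change together. Between 26466 and 31723 probes were well above background on an array, and the median raw signal was 207.5 to 230 on 6 arrays but 324 and 333.5 on the TL arrays. Lung markers were present, since 7 of 7 such genes with a named probe, of 12 listed, were well above background on all 8 arrays. Arrays of a group differed by a median of 0.0757 on the log2 scale over all tested probes. At 41 probes printed in 5 spots, single spots differed by a median of 0.143 between arrays of a group and 0.138 on 1 array. Arrays of a group thus differed little more than repeat spots of 1 array. Standard errors and p-values rest on a spread of that size. With 2 arrays per group the precision is limited.

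All levels below are log2 signals after background correction and quantile normalization, and a level of 1 probe cannot be set against that of another. In bulk lung, fewer cells that carry a transcript and less of it per cell cannot be told apart.

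**Figure D1:**
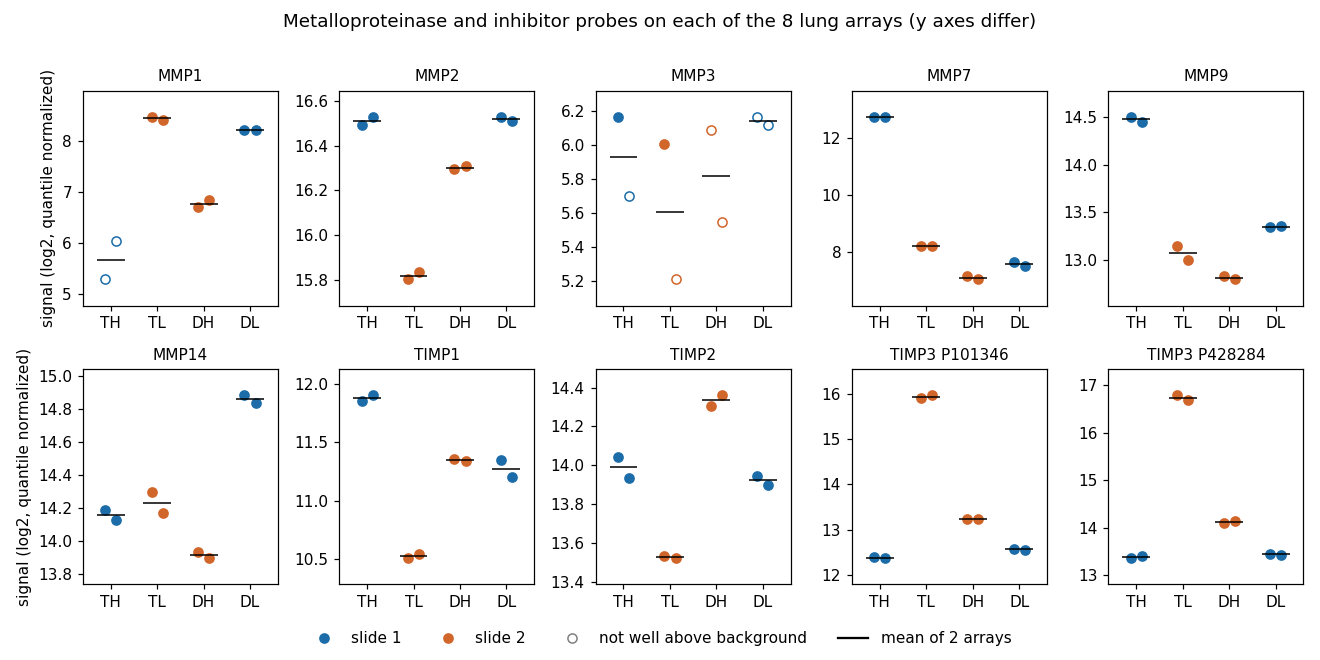
Log2 signal (y axis, scaled separately for each probe) on the 2 arrays of each group (x axis), with colour for the slide, open circles for spots not well above background and a bar for the group mean. MMP7 and MMP9 stand highest in TH, both TIMP3 probes stand highest in TL, MMP2, TIMP1 and TIMP2 stand lowest in TL, and MMP1 is not well above background in TH.

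Among the metalloproteinases, MMP7 had the widest range. MMP7, called matrilysin, is a small enzyme of epithelial cells that cuts elastin, proteoglycans and surface proteins. Its level was 12.73 and 12.76 on the 2 arrays of TH, and 8.19 and 8.20 on those of TL. In Duroc lung it was 7.15 and 7.02 in DH, against 7.63 and 7.50 in DL. TH stood far above the other groups, and TL came next. The TH mean was 23.4-fold the TL mean, 50.6-fold the DH mean and, within slide 1, 36.3-fold the DL mean. The other 3 groups spanned only 1.12 on the log2 scale, from DH to TL, which share slide 2. The range of the group means, 5.66, was wider than that of 99.9% of tested probes. That range is part of why the gene was listed and is given as a description.

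The MMP7 probe was printed in 5 spots on every array, so that its signal could be read across the surface of each slide. The lowest of the 10 spots on the TH arrays was 12.62, and the highest of the 30 spots on the other arrays was 8.37. The 5 spots of 1 array spanned at most 0.57. No spot of the TH arrays came near those of another group. The spots of an array read the RNA of 1 pig, so they are not further samples of its group.

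**Figure D2:**
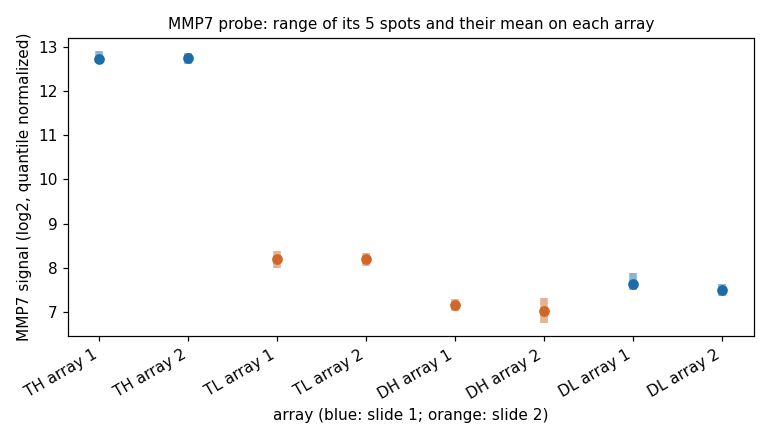
Log2 signal of MMP7 (y axis) on each array (x axis), with a vertical bar from the lowest to the highest of its 5 spots, a point for their mean and colour for the slide. Every TH spot is at 12.62 or more and every other spot at 8.37 or less.

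The size of the MMP7 difference depended on the background correction. The altitude difference in Tibetan less that in Duroc pigs was 5.03, and it was 3.51 with local background and an offset of 50, 5.03 with processed signals scaled to the 75th percentile and 5.28 on the deposited log2 values. On the deposited scale the MMP7 means ± SD (n = 2) were 12.77 ± 0.01 for TH and 8.04 ± 0.03 for TL, with 6.79 ± 0.05 for DH and 7.33 ± 0.09 for DL. TH was the highest group and DH the lowest on both scales.

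Lung, airway and B cell marker genes were read beside MMP7, and which cells carried MMP7 was not measured. Of the 7 lung marker genes 0 were highest in TH. FOXJ1, DNAH5 and DNAI1, listed for ciliated airway cells, had no named probe. The mean level of 5 other airway genes (PIGR, ELF3, BPIFB1, BPIFA1 and LTF), of 15 listed, was 14.44 to 14.47 on the TH arrays and 14.62 to 14.63 on the TL arrays. It was 12.22 to 12.26 in DH and 12.13 to 12.15 in DL. These genes were high in both Tibetan groups, whereas MMP7 was high in TH alone. Of the B cell genes, MS4A1 had a mean level of 14.63 in TH and of 12.36 to 12.79 in the other groups, and CD79A one of 12.47 in TH and of 8.47 to 9.86 elsewhere, so both were highest in TH, as MMP7 was. Their part in the MMP7 difference was not tested. No named marker gene of these lists was at background on all arrays.

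The probes of other named genes whose pattern over the 8 arrays was most like that of MMP7, among 5472 compared, were SCG2, SERPINB11, COIL, KEL and CA1. Likeness was measured as the root mean square difference after each probe was centred on its own mean, and it was 0.29 for SCG2 and 0.46 for SERPINB11. It was 0.72 for COIL and 0.83 for both KEL and CA1. SCG2 had a level of 9.42 in TH and of 4.41 to 4.85 in the other groups. On the arrays of those groups the lowest level well above background was 4.47 to 5.57, so SCG2 was at the floor there, whereas MMP7 was not.

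MMP1 was the member that fell short of background in TH. MMP1 is the collagenase that opens fibrillar collagens, and its gene lies in the same cluster as MMP7. Its level was 8.49 and 8.42 in TL, 8.23 and 8.22 in DL, and 6.70 and 6.84 in DH. In TH it was 5.28 and 6.04, and neither was well above background. Both lowland groups were high, and DH was lower. Against the TH readings, MMP1 was 6.91-fold higher in TL, 5.90-fold higher in DL on the same slide and 2.16-fold higher in DH. These folds are uncertain, because the TH readings were not well above background and the sizes depended on the background correction.

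The adjusted p by limma was 0.000152 for TH less TL, 0.000463 for TH less DL and 0.0124 for TH less DH, and none passed the FDR of 0.0001 that the study used. The fitted altitude effect, −2.12 ± 0.17 (SE), came just short of that threshold (limma adjusted p = 0.00016). It rested in part on the TH values, which were not well above background. With probes restricted to those well above background on both arrays of a group, it passed (limma adjusted p = 6.75e-05). With local background and an offset of 50 it passed (limma adjusted p = 2.27e-06) at a far smaller size, −0.56. TH less TL passed with the 75th percentile scaling (limma adjusted p = 8.91e-05). DH less DL, both measured, was −1.45 ± 0.24 (limma adjusted p = 0.0043), and TL less DL was 0.23 (limma adjusted p = 0.427). The raw signal of the spot was 86 and 108 in TH, 132 and 140.5 in DH, 288 and 293 in DL and 556 and 552 in TL, so MMP1 was a dim probe read from a single spot on each array.

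STC1, AQP4, MYL2, TCP11L2 and MCT7 had the pattern most like that of MMP1, with root mean square differences of 0.37 for STC1 and 0.46 to 0.54 for the others. STC1, which encodes the hormone stanniocalcin, had a level of 10.93 in TH, 11.69 in DH, 12.61 in DL and 13.08 in TL. That is the order of the MMP1 means.

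MMP3, stromelysin, which cuts proteoglycans and activates other metalloproteinases, was barely measured. It was well above background on 1 TH array, at 6.16, and on 1 TL array, at 6.01. The other 6 arrays read 5.21 to 6.16 without passing background. No order of its groups could be read, and none of the comparisons passed (limma adjusted p = 0.193 to 0.996).

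MMP7, MMP20, MMP27, MMP8, MMP1, MMP3, MMP12 and MMP13 follow each other in this order in the RefSeq annotation of the pig genome (assembly Sscrofa11.1), with a pseudogene between MMP12 and MMP13. Of these, MMP7, MMP20, MMP1, MMP3 and MMP12 had a named probe. MMP12, the elastase of macrophages, had a level of 8.56 in TH, 8.39 in DH, 7.57 in DL and 7.32 in TL. MMP20, an enzyme of tooth enamel, was well above background only in DH, at 6.96. The MMP12 means were higher in both highland groups (limma adjusted p = 7.38e-05 for altitude), those of MMP1 were lower there, and MMP7 was high in TH alone, so the measured neighbours had different patterns.

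The gelatinases, which cut basement membrane collagen and denatured collagen, differed from each other. MMP9, the gelatinase stored in neutrophils and also made by macrophages, had a level of 14.51 and 14.45 on the TH arrays and of 13.15 and 13.00 on the TL arrays. It was 12.83 and 12.79 in DH and 13.34 and 13.35 in DL. TH was highest and DH was lowest, though TL was lowest with processed signals scaled to the 75th percentile. On the deposited scale the means ± SD (n = 2) were 14.45 ± 0.02 for TH and 13.04 ± 0.03 for TL, with 12.78 ± 0.02 for DH and 13.28 ± 0.01 for DL.

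MMP9 was higher in Tibetan than in Duroc lung by 0.70 ± 0.04 on the log2 scale (limma adjusted p = 5.12e-05), and it alone of 7 tested members passed for breed with this normalization. Over all tested probes 19.5% passed for breed. The mean over both Tibetan groups hides that TH was 3.17-fold DH (limma adjusted p = 2.99e-05), whereas TL less DL was −0.27 (limma adjusted p = 0.0075). With the 75th percentile scaling TL less DL was −0.71 and passed (limma adjusted p = 9.16e-06). Within Tibetan pigs TH was 2.65-fold TL (limma adjusted p = 9.54e-06). In Duroc pigs DH less DL was −0.54 and did not pass (limma adjusted p = 0.000983). With the 75th percentile scaling it was −0.525 and passed (limma adjusted p = 8.43e-05). The altitude effect over both breeds, 0.43, did not pass (limma adjusted p = 0.000328). It passed on the deposited log2 values (limma adjusted p = 2.24e-05) and with the 75th percentile, at 0.71 (limma adjusted p = 6.02e-06). The altitude difference in Tibetan less that in Duroc pigs was 1.94 ± 0.08 (limma adjusted p = 1.44e-05). Within slide 1, TH was 2.19-fold DL (limma adjusted p = 7.33e-05).

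Fits with 1 of the 8 arrays left out called far fewer probes on the whole array, at most 5.39% for breed, 0% for altitude and 8.25% for the interaction, so a call lost there says little of a member. The breed call of MMP9 was lost in each of them (limma adjusted p = 0.000193 to 0.0005), while the difference stayed between 0.66 and 0.73. The interaction was lost without any array other than the first TL array (limma adjusted p = 9.35e-05 to 0.000184), with values of 1.87 to 2.01. TH less DH and TH less DL were lost without any 1 array (limma adjusted p = 0.000164 to 0.00112), where at most 0.381% and 0.552% of all probes passed, and the differences stayed at 1.64 to 1.70 and at 1.10 to 1.16. TH less TL was lost only without a TH array (limma adjusted p up to 0.000171). TL less DH, 0.26, turned to −0.19 when processed signals were scaled to the 75th percentile.

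Neutrophil genes were read beside MMP9. NPG4, LTF and PR39, 3 of 16 listed, had a mean of 11.09 to 11.11 for TH and 11.20 to 11.24 for TL, with 8.65 to 8.69 for DH and 10.03 to 10.06 for DL. This mean was higher in both Tibetan groups and lowest in DH. Between TH and DL, LTF differed most, at 12.47 against 9.64. NPG4 was at 12.32 against 12.05 and PR39 at 8.51 against 8.44. Both NPG4 and PR39 were highest in TL, at 13.05 and 9.56, unlike MMP9. LTF, at 11.06 in TL, was highest in TH. LTF is also among the airway genes read beside MMP7. Macrophage genes, 10 of 16 listed, had a mean of 12.42 to 12.52 in Tibetan lung and of 12.97 to 13.07 in Duroc lung, but did not move as one. In both Tibetan groups 4 of them (C1QA, LYZ, MRC1 and CHIT1) were below both Duroc groups, FABP4 was above them, and the other 5 did neither. MS4A1 and CD79A, given above, were highest in TH, as was MMP9. The part of these cells in the MMP9 difference was not tested.

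MMP2, the gelatinase of fibroblasts and other mesenchymal cells, had a level of 16.49 and 16.53 in TH and of 16.53 and 16.51 in DL. It was 16.29 and 16.31 in DH and 15.80 and 15.83 in TL. TL alone stood low, DH was slightly below the resident groups, and TH and DL overlapped. MMP2 was 1.62-fold higher in TH than in TL (limma adjusted p = 2.35e-05) and 1.63-fold higher in DL than in TL (limma adjusted p = 2.22e-05). The size hung on the scaling, since with the 75th percentile TH less TL was 1.47 and TL less DL −1.37 on the log2 scale. DH less DL was −0.22 (limma adjusted p = 0.00492), and −0.06 with the 75th percentile (limma adjusted p = 0.28). The altitude difference in Tibetan less that in Duroc pigs was 0.91 ± 0.05 (limma adjusted p = 4.18e-05). Both calls against TL and the interaction were lost when any 1 array was left out (limma adjusted p = 0.000109 to 0.000517), with TH less TL at 0.68 to 0.71 and the interaction at 0.89 to 0.93. Fibroblast genes, 6 of 11 listed, had a mean of 12.28 to 12.33 in TL against 12.23 to 12.51 on the other arrays, and went opposite ways there. At the brightest probe of each gene, DCN, LUM and THY1 were highest in TL. The collagen genes COL1A2, at 13.89 against 15.07 to 15.52, and COL1A1, at 6.58 against 8.01 in TH and 8.13 in DH, were lowest there. Another collagen gene, COL3A1, was lowest in DH, at 16.7, with 16.77 in TL, 17.35 in TH and 17.28 in DL. Other probes of some of these genes disagreed. Of 5 COL1A2 probes TL was lowest at 2 and highest at 1 (A_72_P192797, at 11.07). The second LUM probe, A_72_P127756, was highest in TH, at 8.80. The part of fibroblasts in the MMP2 difference was not tested.

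TL less DH within slide 2 was −0.48 for MMP2 (limma adjusted p = 0.000108), short of the threshold, and −1.31 with the 75th percentile, past it (limma adjusted p = 4.73e-06). TH less DL within slide 1 was −0.01 (limma adjusted p = 0.847). That sign has no meaning, because it turned with the scaling and with single arrays.

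MMP14, a membrane-bound metalloproteinase that cuts collagen and activates the MMP2 precursor together with TIMP2, was highest in DL. Its level was 14.88 and 14.84 in DL, 14.30 and 14.17 in TL, 14.19 and 14.13 in TH and 13.93 and 13.89 in DH. DL stood above the rest, TH and TL overlapped, and DH lay below, though TL was lowest with the 75th percentile scaling. No comparison of MMP14 passed with this normalization. The nearest were DH less DL, −0.95 ± 0.06 (limma adjusted p = 0.00016), and the altitude effect, −0.51 ± 0.04 (limma adjusted p = 0.000164). Both passed on the deposited log2 values (limma adjusted p = 3.45e-05 and 2.97e-05). With the 75th percentile DH less DL was −0.93 and passed (limma adjusted p = 3.57e-05), whereas the altitude effect was only −0.17 and did not (limma adjusted p = 0.00266). The interaction passed on both of these scales, at 0.91 (limma adjusted p = 4.18e-05) and 1.53 (limma adjusted p = 8.85e-06). TH less TL was −0.07 and TL less DH was 0.32, but they were 0.60 and −0.31 when processed signals were scaled to the 75th percentile, so no direction is given for either.

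Among the inhibitors, TIMP1 was highest in TH and lowest in TL, and both TIMP3 probes stood apart in TL. TIMP1, a soluble inhibitor that binds the MMP9 precursor, had a level of 11.85 and 11.90 in TH and of 10.51 and 10.54 in TL. It was 11.36 and 11.34 in DH and 11.35 and 11.20 in DL. TH was highest and TL lowest, and both Duroc groups overlapped between them. On the deposited scale the means ± SD (n = 2) were 12.02 ± 0.01 for TH and 10.66 ± 0.02 for TL, with 11.54 ± 0.01 for DH and 11.41 ± 0.02 for DL.

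TIMP1 was higher at high altitude by 0.71 ± 0.04 (limma adjusted p = 5.51e-05), and it alone of 7 members passed for altitude with this normalization, against 17.4% of all tested probes. This mean came from Tibetan lung, where TH was 2.55-fold TL (limma adjusted p = 1.14e-05). In Duroc lung DH less DL was 0.08 (limma adjusted p = 0.331). The altitude difference in Tibetan less that in Duroc pigs was 1.28 ± 0.08 (limma adjusted p = 6.89e-05). Within slide 2, TIMP1 was lower in TL than in DH by 0.82 (limma adjusted p = 8.35e-05). With any 1 array left out the altitude effect stayed at 0.68 to 0.75 and the interaction at 1.20 to 1.35. Neither passed there (limma adjusted p = 0.000181 to 0.000724), nor did TL less DH (limma adjusted p up to 0.00121), and no probe of the array passed for altitude in those fits. TH less TL was lost only without an array of TH or TL, with a difference of 1.33 to 1.38.

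TIMP2, the inhibitor that also takes part in activation of MMP2, had a level of 14.31 and 14.36 in DH and of 14.05 and 13.93 in TH. It was 13.94 and 13.90 in DL and 13.53 and 13.52 in TL. DH was highest, TL lowest, and the resident groups overlapped. Within slide 2 TIMP2 was lower in TL than in DH by 0.81 (limma adjusted p = 5.35e-05), and by 0.78 to 0.83 with any 1 array left out, where the call was lost (limma adjusted p = 0.000118 to 0.000852) and 2.32% to 15.2% of all probes passed. With the 75th percentile scaling it was −1.43. TH less TL, 0.46, and DH less DL, 0.41, did not pass (limma adjusted p = 0.000481 and 0.00164). The interaction was 0.05 ± 0.07 (limma adjusted p = 0.563). These values depended on the scaling. TH less TL passed on the deposited log2 values, at 0.50 (limma adjusted p = 3.35e-05), and with the 75th percentile, at 1.06 (limma adjusted p = 2.68e-06). There the interaction was 0.59 and also passed (limma adjusted p = 8.97e-05), with DH less DL at 0.47.

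TIMP3, the inhibitor that stays bound to the matrix, was read by 2 probes of 1 target sequence. The first, A_72_P101346, had a level of 15.92 and 15.97 in TL and of 13.24 and 13.24 in DH. It was 12.57 and 12.55 in DL and 12.38 and 12.36 in TH. TL stood far above the other groups. TL was 11.9-fold TH, 10.5-fold DL and, within slide 2, 6.53-fold DH. DH less DL was 0.68.

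The second, A_72_P428284, had a level of 16.79 and 16.69 in TL, 14.09 and 14.13 in DH, 13.44 and 13.42 in DL and 13.35 and 13.41 in TH. TL was 10.3-fold TH, 9.89-fold DL and 6.18-fold DH. After centring, both probes differed by at most 0.17 on an array, so they told the same order of groups. Sharing a target, they are not independent readings of the gene. With processed signals scaled to the 75th percentile, TH less TL was nearer to 0, at −2.86 for the first probe and −2.64 for the second on the log2 scale, in place of −3.57 and −3.36.

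A further probe, A_72_P319118, carries the spelling TIMP-3 and a different target, and lies outside the rule by its spelling. Its level was 9.56 in DL, 9.22 in TL, 9.12 in DH and 8.21 in TH. TH was lowest at all 3 probes, but TL, the highest group by a wide margin at both TIMP3 probes, lay below DL at this one. At both TIMP3 probes TH was close to DL, with TH less DL at −0.19 and −0.05. Here TH lay far below DL, at 8.21 against 9.56. The probes thus disagree on TL and on the size of TH less DL. Which of them reads the TIMP3 transcript was not tested.

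**Figure D3:**
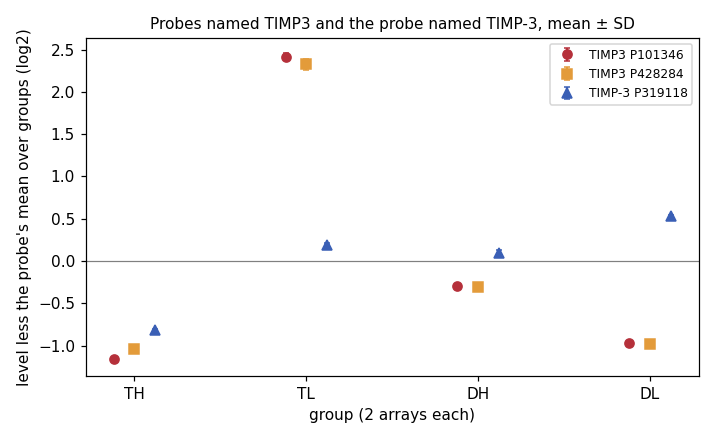
Log2 level of each probe less its own mean over the 4 groups (y axis) by group (x axis), as mean ± SD of 2 arrays. Both TIMP3 probes stand far up in TL, where the TIMP-3 probe lies below its DL level. All 3 are lowest in TH, though close to DL at both TIMP3 probes.

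Of the 7 tested members, 1 passed for breed, 1 for altitude and 3 for the interaction, the last against 21.1% of all tested probes. The 3 interactions were positive and belonged to MMP2, MMP9 and TIMP1. The median of all tested probes was itself 0.19 for the interaction, and 0.33 with the 75th percentile scaling, so these values are read against that shift. The median size over the 7 members was 0.25 for breed, 0.44 for altitude and 0.91 for the interaction, against 0.35, 0.34 and 0.75 over all tested probes. At an FDR of 0.05, 4, 6 and 5 members passed, where 67.7%, 66.9% and 69.7% of all tested probes did.

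Between altitudes within a breed, 3 members passed for TH less TL, all higher in TH (MMP2, MMP9 and TIMP1), where 29.5% of all tested probes passed. For DH less DL 0 of 7 passed by limma, where 3.07% of all did. At an unadjusted p under 0.05, 5 of 7 reached it for DH less DL, where 59.8% of all probes did, with MMP1, MMP2, MMP9 and MMP14 lower in DH and TIMP2 higher. Between breeds, MMP9 passed at high altitude, where 4.42% of all probes did, and MMP2, lower in TL, passed at low altitude, where 29.9% did. Within slides, MMP9 passed for TH less DL, where 6.47% of all did, and TIMP1 and TIMP2, both lower in TL, passed for TL less DH, where 26.2% did. These comparisons share arrays with each other and do not count as separate evidence.

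**Figure D4:**
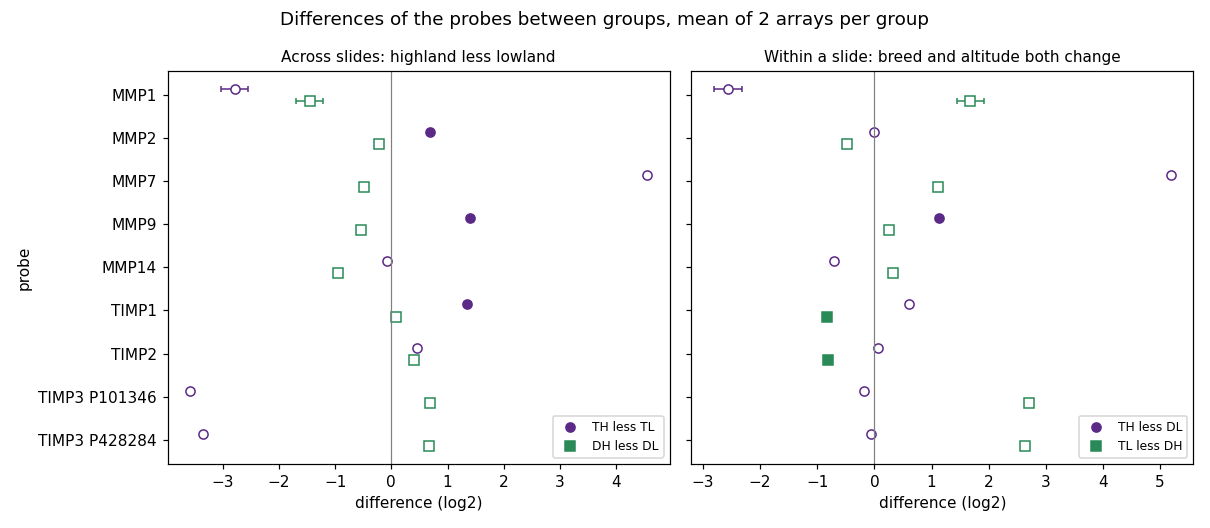
Difference between group means (x axis, log2) for each probe (y axis), with bars for the standard error of tested probes and filled symbols where limma's adjusted p was below 0.0001. The left panel gives highland less lowland for each breed, and the right panel gives both differences within a slide. MMP7 reads 4.55 and TIMP3 −3.57 and −3.36 for TH less TL. MMP3 is left out because it was rarely above background, and MMP1 in TH was not well above background.

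TL was the group farthest from the mean of the others for 5 of the 10 probes (MMP2, TIMP1, TIMP2 and both of TIMP3). TH was farthest for 3 (MMP1, MMP7 and MMP9), DL for 2 (MMP3 and MMP14) and DH for 0. MMP3 is in these counts although it was rarely above background. On the whole array 52.2% of tested probes had TL as that group, 17.6% had TH, 18.5% had DL and 11.6% had DH. The TL share of the members was thus near that of the whole array. TL was the lowest group for 4 probes, MMP3 among them, and the highest for 3, where all tested probes had it lowest for 42.6% and highest for 31.0%. With the 75th percentile scaling TL was lowest for 5 probes (MMP2, MMP9, MMP14, TIMP1 and TIMP2), and the median of TH less TL over all tested probes was 0.24 in place of 0.10. MMP3 aside, the order of the 4 groups on the deposited log2 values was as above at every probe.

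The rest of the system was read from 6 lists of genes, whose counts are for probes named by RefSeq accession. They are to be read beside all tested probes, of which 10.6% were higher and 8.92% lower in Tibetan lung, 8.94% higher and 8.47% lower at high altitude, and 9.24% positive and 11.9% negative for the interaction. The lists are small, and nothing particular to a list is read from its count. Of 7 probes of other metzincins, the enzyme superfamily of the metalloproteinases, 2 were lower in Tibetan lung, 1 was higher and 2 lower at high altitude, and 0 passed for the interaction by limma. The metzincin probes with the widest range, named only by the authors' lists, were ADAMTS19 and ADAMTS14, a processing enzyme of collagen precursors. ADAMTS19 was highest in DH, at 10.98, with 8.12 to 9.24 elsewhere, and ADAMTS14 was highest in TL, at 10.38, with 8.39 to 9.81 elsewhere.

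Of 15 probes of other inhibitors, 3 were higher and 1 lower in Tibetan lung, 2 were higher and 0 lower at high altitude, and the interaction was positive for 1 and negative for 2. PI3, the elastase inhibitor elafin, was well above background on 4 of 8 arrays, with a level of 8.19 in TH and of 5.30 to 6.55 in the other groups. A probe of SERPINB9, A_72_P077891, an inhibitor of granzyme B, was lower in the Tibetan groups, at 11.80 for TH and 10.57 for TL, than in Duroc lung, at 12.85 for DH and 12.36 for DL. A second SERPINB9 probe was highest in TL, at 10.68, so the probes of that gene disagreed.

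Of 13 probes of activators and surface partners, 4 were higher and 0 lower in Tibetan lung, 1 was higher and 5 lower at high altitude, and the interaction was positive for 1 and negative for 3. CD44, a hyaluronan receptor that holds MMP9 and MMP7 at the cell surface, had 2 probes named by the authors' lists. They read 12.63 and 12.05 in TL, 9.31 and 9.32 in TH, 9.41 and 10.09 in DH and 8.48 and 8.42 in DL. Both were high in TL, as TIMP3 was, and neither followed MMP7 or MMP9.

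Of 11 probes of matrix substrates, 3 were higher and 4 lower in Tibetan lung, 0 were higher and 4 lower at high altitude, and the interaction was positive for 5. COL4A2, a basement membrane collagen, had 4 probes named by the authors' lists, which disagreed. The one with the widest range, A_72_P373753, was at 14.04 in TL and at 9.77 to 11.15 in the other groups, but TL was lowest at the other 3. DCN, the proteoglycan decorin, was at 14.47 in TL, 12.94 in TH, 12.62 in DL and 11.77 in DH at its probe with the widest range. That probe was higher in Tibetan lung (limma adjusted p = 6.82e-06) and lower at high altitude (limma adjusted p = 1.68e-05). Of the 5 DCN probes 4 were highest in TL, and A_72_P244532 was highest in DH, at 9.76.

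Of 8 probes of other matrix proteases, 1 was higher and 1 lower in Tibetan lung, 3 were higher and 1 lower at high altitude, and the interaction was positive for 1. CTSC, a lysosomal cathepsin with 1 probe, was highest in TL, at 14.17 against 11.69 to 12.26 in the other groups. The probe of the cathepsin CTSB with the widest range, A_72_P316628, was also highest there, at 12.66 against 10.60 to 11.37, but its 2 probes named by RefSeq accession were highest in DH. Of 21 probes of inducers and repressors of metalloproteinase transcription, 2 were lower in Tibetan lung, 3 were higher and 2 lower at high altitude, and the interaction was positive for 1. NFKB1, a subunit of the factor NF-κB, had 6 probes, which disagreed on TL. It was the highest group at 3 of them, such as A_72_P344798, at 12.53 against 9.96 to 10.39 elsewhere, and the lowest at the other 3, which include both named by RefSeq accession (11.77 at A_72_P278054, against 12.05 to 12.58).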

How the data were processed

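Lung RNA of 8 pigs was hybridized, 1 sample per array, to 8 Agilent 1-color porcine arrays with 45220 spots each. The authors scanned the arrays and deposited each spot's intensity (the median of its signal, its surrounding background and a signal already processed), all made by Feature Extraction (version 10.7.3.1 per the file headers, 9.1 per the submitters' processing notes). The authors also deposited log2 values, normalized by RMA as their methods state, with a median of 7.40 on every array.

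Median signals were corrected by a normal-exponential convolution (offset 0), quantile normalized, set to log2 and averaged per probe after removal of control and outlier spots. In R 4.3.3, limma 3.58.1 was run with terms for breed, altitude and their interaction on all 34406 probes that were well above background on any array, and p-values were adjusted over all of them by Benjamini-Hochberg, at an FDR of 0.0001. The mean signal had been planned, and the median signal was used because the deposited files hold that one. Each group was 2 pigs, so p-values measure only the spread between these arrays. Groups came from the sample labels.

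Of 3250 probes with a RefSeq accession, 2683 matched a symbol, and 2995 more were named by the authors only. Of 660 named by both ways, 647 had the same symbol. Every listed gene was described, and of 6 gene lists the probes with the widest range, 2 per list. The second SERPINB9 probe, MMP12, MMP20 and TIMP-3 were named after their values were seen. The members and lists were chosen with earlier results of these data known. A marker gene of the B and plasma cell list, and the mean of that list, are not reported here. The steps were tested on simulated data. Alternatives were other scalings, background corrections, filters, variance models and thresholds, blocks for replicate number and slide, and each array left out. Figures were drawn with matplotlib 3.10.9.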

Additional observations from a re-analysis of the deposited data

Results flagged for a closer look

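The altitude difference of 3 tested members differed between the breeds, by limma's interaction test. On the log2 scale it was larger in Tibetan than in Duroc pigs by 0.91 for MMP2, 1.94 for MMP9 and 1.277 for TIMP1. In 3 probes with no test, both arrays of a breed moved one way between altitudes and those of the other breed the opposite way, and the difference was not tested. It was 5.025 for MMP7, −4.254 for TIMP3 at A_72_P101346 and −4.037 for TIMP3 at A_72_P428284. The slide and the move are the same contrast as each of these values and cannot be told apart from it.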

How the results depend on the processing

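Of 7 tested members, 1 passed for breed, 1 for altitude and 3 for the interaction. In the same order the counts were 4, 4 and 5 with processed signals scaled to the 75th percentile (33.2%, 30.4% and 32.4% of all tested probes passed), 2, 4 and 4 both with these quantile normalized and on the deposited log2 values (26.3% to 28.5%), 3, 6 and 4 with local background and offset 50 (28.8% to 29.0%) and 3, 6 and 4 with an intensity trend (29.6% to 31.3%). They were 1, 3 and 3 for probes above background on both arrays of a group (25.1% to 28.4%), 2, 4 and 4 for all 8 arrays (42.9% to 43.7%), and 4, 6 and 5 at an FDR of 0.05 (66.9% to 69.7%). They were 0, 0 and 1 with no filter (9.39% to 13.0%) and without moderation (2.98% to 6.59%). Replicate numbers did not pair the samples (correlations of array differences −0.07 to 0.15), and the replicate block also gave 0, 0 and 1 (1.87% to 9.25%). With an array left out, 0 passed for breed (0.00581% to 5.39% of all probes), 0 for altitude, where no probe of the array passed, and 0 to 1 for the interaction (4.25% to 8.25%). At an unadjusted limma p under 0.05 the counts were 6, 6 and 5 in the main fit, where 70.4%, 69.7% and 72.1% of all tested probes reached it. The members' counts are to be read beside these shares. Outlier spots changed no count. A slide block is the interaction term under another name and could change nothing. MMP3 aside, signs turned with the 75th percentile for MMP2 in TH less DL (0.102), MMP9 in TL less DH (−0.188), and MMP14 in TH less TL (0.602) and TL less DH (−0.307). With an array left out, TH less DL of MMP2 was −0.026 to 0.007 and the TIMP2 interaction −0.004 to 0.107. The cause was not tested. Signal over background limits MMP1 in TH and MMP3 throughout.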
